A study of Rattus norvegicus with 16 samples.

Results

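Oxidative phosphorylation was followed here through 83 rat genes, out of 15168 genes named on the array. The genes were taken by their symbols: those beginning with Nduf, Sdh, Uqcr or Atp5, and those from Cox4 to Cox8 except Cox8b. They comprised 30 subunits of complex I, 4 of complex II, 8 of complex III, 12 of complex IV and 14 of complex V. The same symbols brought in 4 tissue isoforms of complex IV, the complex V inhibitor Atp5if1, 8 assembly factors of complexes I and II, and 2 copies, the NDUFA10-like gene Ndufa10l1 and the pseudogene Cox6c-ps1. Of 121 protein-coding genes with such symbols in the RefSeq table, 82 were matched to a probe. The isoforms Cox7a1, Cox7b2 and Ndufa4l2 were among those not matched and were not analysed here. The complex III subunit Cyc1 and the subunits made from mitochondrial DNA have other symbols and were not analysed here either.

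The tissue was epididymal white adipose tissue, the fat pad beside the epididymis, of male rats aged 30 days. In both groups the dams ate a high-fat diet through pregnancy and lactation, and the pups ate that diet too until they were killed. Dams of the HF group (8 offspring) received only low-fat condensed milk, and dams of the HFT group (8 offspring) received the milk with a grape seed procyanidin extract (GSPE) at 25 mg/kg. The comparison therefore asks what maternal GSPE adds on a high-fat background, since no group without the diet was used here. Animals are called by group and number as in the labels, and which of them shared a litter is not given there, so p-values measure only the spread between these animals.

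One array was hybridised per animal, on 4 slides that each carried 2 animals of either group. Between 68.3% and 73.5% of probes were well above background per array, and no spot was saturated. Levels are log2 signals minus the 75th percentile of the array, so that 0 is the 75th percentile of that array. They are compared only within a gene. All 12 adipocyte markers with a probe were well above background on all 16 arrays. The arrays of HF 8, HFT 23 and HFT 28 stood 4.21 to 4.85 log2 units above the median array on markers of epididymal epithelium, and those of 3 other animals (HF 35, HFT 22 and HFT 24) stood 3.63 to 5.65 above it on markers of urothelium, the lining of the bladder. Results on the subunits as a whole that rest on these arrays are given with and without them. HFT against HF in the further gene lists is given on all 16 arrays only.

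The respiratory chain passes electrons from NADH (at complex I) and succinate (at complex II) through ubiquinone to complex III, then through cytochrome c to complex IV, where oxygen is reduced. Complexes I, III and IV pump protons out of the mitochondrial matrix, and complex V lets them return through a rotor to make ATP. White fat has fewer mitochondria than brown fat, in which Ucp1 lets the protons return without making ATP. Most subunits are encoded in the nucleus, and NRF1 and the ETS-family factor GABPA are known activators of many of these genes.

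The promoters of the genes are described first, and whether their motifs bear on the levels was not tested. The RefSeq table (GRCr8) held 73 of the 83 genes, as 250 bases before and 50 after the annotated start. The NRF1 core, GCGCA then any base then GCGC on either strand, was present in 12 of 61 promoters of complex I to V subunits (19.7%), against 4.71% of all 27457 promoters in the table. The ETS core, CCGGAAG on either strand, was present in 20 of the 61 (32.8%), against 9.22% of all promoters. A TATA box, TATAAA on either strand, was present in 4 of the 61 (6.56%), against 14.3% of all promoters. The median GC content was 57.7% in the 61 and 52.3% in all promoters, and the motifs were not counted against promoters of like GC content. None of the 10 complex IV subunits in the table held the NRF1 core, while 4 held the ETS core.

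The windows below are the 120 bases before the annotated start, 5′ to 3′ on the gene's strand, with NRF1 or ETS cores in capitals. Sdha and Atp5po show the NRF1 core, and Sdhd, Ndufb7 and Cox5b the ETS core. Atp5if1 and Cox6a2 are shown because their levels went apart from the other members, and neither core was found in their windows. The subunits shown are examples that hold a core, while many promoters of complex I to V subunits held neither. The choice of windows therefore does not show that a core goes with the levels.
Sdha (GRCr8 chr1:30764433-30764552, plus strand): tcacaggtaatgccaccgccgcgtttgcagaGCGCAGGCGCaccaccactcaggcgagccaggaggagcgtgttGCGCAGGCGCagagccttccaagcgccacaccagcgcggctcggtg
Atp5po (GRCr8 chr11:44657484-44657603, minus strand): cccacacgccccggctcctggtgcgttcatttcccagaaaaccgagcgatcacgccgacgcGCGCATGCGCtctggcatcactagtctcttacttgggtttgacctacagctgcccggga
Sdhd (GRCr8 chr8:59850642-59850761, minus strand): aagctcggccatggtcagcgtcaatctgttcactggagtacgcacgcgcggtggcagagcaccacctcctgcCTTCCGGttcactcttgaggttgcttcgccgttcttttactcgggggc
Ndufb7 (GRCr8 chr19:41477292-41477411, minus strand): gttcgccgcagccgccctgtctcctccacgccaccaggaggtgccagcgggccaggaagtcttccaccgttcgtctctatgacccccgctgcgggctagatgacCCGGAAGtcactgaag
Cox5b (GRCr8 chr9:46417717-46417836, plus strand): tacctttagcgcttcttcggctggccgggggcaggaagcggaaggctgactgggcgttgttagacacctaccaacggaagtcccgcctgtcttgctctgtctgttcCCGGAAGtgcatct
Atp5if1 (GRCr8 chr5:150026678-150026797, minus strand): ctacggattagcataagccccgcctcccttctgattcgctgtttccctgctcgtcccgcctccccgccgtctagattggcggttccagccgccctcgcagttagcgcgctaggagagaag
Cox6a2 (GRCr8 chr1:192219717-192219836, minus strand): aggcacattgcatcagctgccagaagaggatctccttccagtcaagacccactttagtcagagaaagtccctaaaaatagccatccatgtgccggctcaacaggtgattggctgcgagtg
The match of letters is a description of these windows and does not show that a factor binds there.

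No member passed the test of HFT against HF. Of 83 members tested with limma (Benjamini-Hochberg adjustment over all probes), 0 passed an adjusted p of 0.05 and 0 had an unadjusted p under 0.05, and the adjusted p of every member was 1.0. Over all 21808 probes tested, 0 passed the adjusted threshold (0%) and 515 (2.36%) had an unadjusted p under 0.05. Small differences below 0 were frequent: 65 of 68 subunits were lower in HFT, with a median of -0.08 log2 units, against 56.2% of all probes and a median of -0.02. The subunits moved together from animal to animal, as described below, so this count is not one of independent genes. The counts by complex that follow share this limit. The standard error of a subunit's difference was 0.13 at the median, and 8 of 68 differences were larger than their own standard error. The HFT and HF values overlapped in all 83 members, as they did in all 11591 genes tested.

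**Figure D1:**
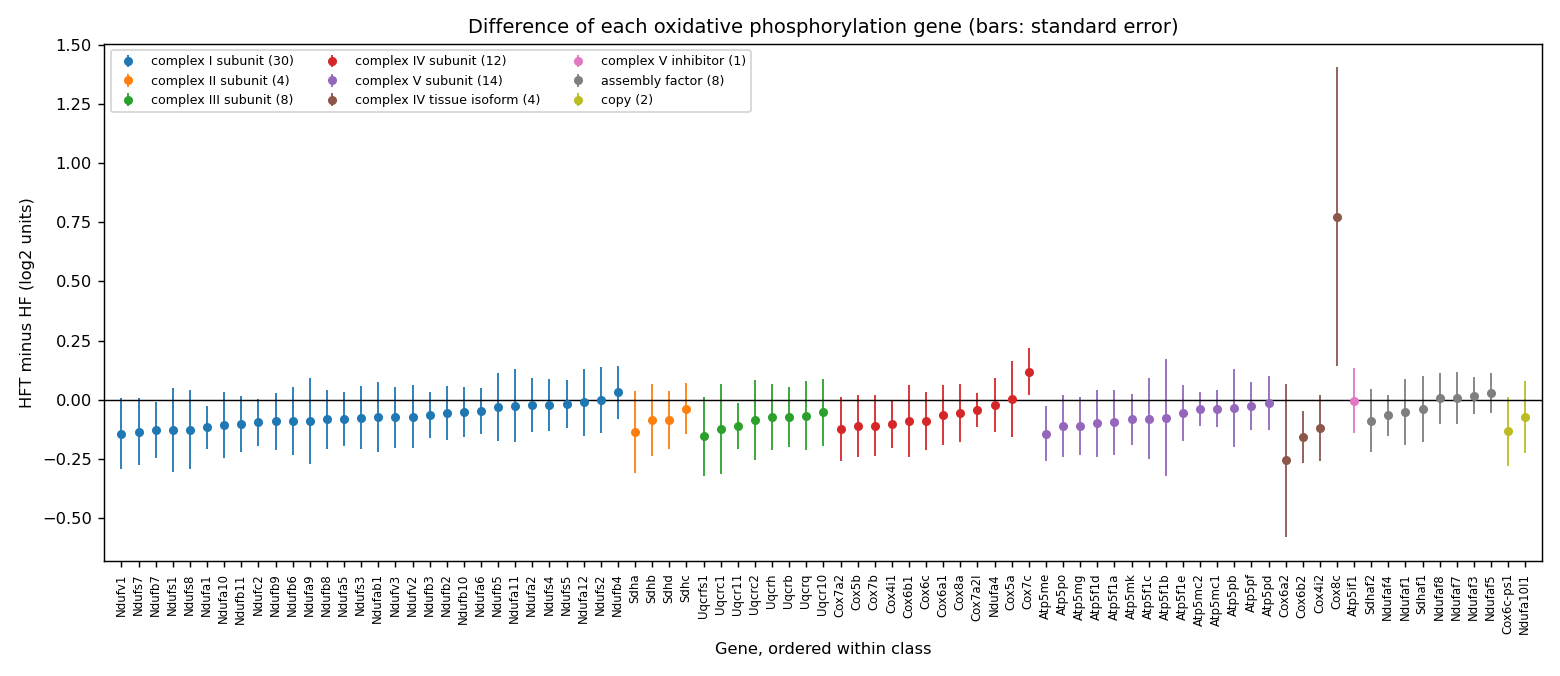
HFT minus HF difference in log2 units (y axis) of each of the 83 genes (x axis), coloured by class, with bars for the standard error of the limma fit (8 animals per group); the dark spots of Ndufv1 and Ndufc2 on HFT 28 are left out. Most subunits lie between -0.15 and 0.03, and Cox8c, mostly not above background, stands apart with the widest error.

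Complex I takes electrons from NADH through the flavoprotein Ndufv1 and a chain of iron-sulfur clusters held by Ndufs1 and other core subunits. Of its 30 subunits, 29 were lower in HFT, with a median difference of -0.07. Ndufb8, a small accessory subunit, ran from 5.49 to 6.40 (median 6.09) in HF and from 5.68 to 6.21 (median 6.05) in HFT. The groups overlapped almost fully, and the difference was -0.08 ± 0.12 (SE, n = 8 per group, limma adjusted p = 1.0). Ndufs1 ran from 1.67 to 2.93 in HF and from 1.72 to 2.75 in HFT, a difference of -0.13 ± 0.18 (SE). Ndufa1, the complex I subunit of smallest p, ran from 4.32 to 4.96 in HF and from 4.21 to 4.70 in HFT. Its difference was -0.12 ± 0.09 (SE) with an unadjusted p of 0.22 (limma). The 7 core subunits had a median difference of -0.13 and the 23 accessory subunits one of -0.07. Ndufb4 was the single complex I subunit above 0, at 0.03.

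Complex II, which is also an enzyme of the citric acid cycle, has a catalytic head (Sdha, which holds the flavin, and Sdhb, which holds iron-sulfur clusters) on a membrane anchor (Sdhc and Sdhd). All 4 were lower in HFT, with differences from -0.14 to -0.04. Sdha ran from 3.14 to 4.52 (median 3.99) in HF and from 3.27 to 4.26 (median 3.86) in HFT. Sdhb ran from 2.61 to 3.71 in HF and from 2.50 to 3.38 in HFT. The HFT range of Sdha lay inside the HF range, and that of Sdhb nearly so. The differences were -0.14 ± 0.17 (SE) for Sdha, -0.09 ± 0.15 for Sdhb and -0.08 ± 0.12 for Sdhd.

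Complex III passes electrons from ubiquinol to cytochrome c through the Rieske iron-sulfur protein Uqcrfs1, on a frame that includes the core proteins Uqcrc1 and Uqcrc2. All 8 of its members were lower in HFT, from -0.15 to -0.05. Uqcrfs1 ran from 3.23 to 4.54 (median 4.04) in HF and from 3.35 to 4.36 (median 3.86) in HFT, a difference of -0.15 ± 0.17 (SE). Uqcrc2 ran from 2.63 to 3.97 in HF and from 2.75 to 3.77 in HFT, a difference of -0.08 ± 0.17 (SE). In both genes the lowest HF animal lay below every HFT animal. Uqcr11, a small subunit, had the smallest unadjusted p of the complex, 0.28 (limma), at -0.11 ± 0.10 (SE).

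Of 12 general complex IV subunits, 10 were lower in HFT, with a median of -0.08. Cox7a2l, a factor that joins complexes III and IV, was counted among the 12 and so among the 68 subunits. Cox4i1, the common form of the largest nuclear-encoded subunit, ran from 6.42 to 6.94 (median 6.68) in HF and from 6.20 to 6.92 (median 6.63) in HFT, a difference of -0.10 ± 0.10 (SE). Cox7c, a small subunit, was the highest of the 12 at 0.12 ± 0.10 (SE), with levels from 0.36 to 0.91 in HF and from 0.46 to 1.0 in HFT. The groups overlapped over most of their range in both. Differences of the common forms that have a tissue isoform were -0.06 for Cox6a1, -0.09 for Cox6b1, -0.12 for Cox7a2, -0.11 for Cox7b and -0.06 for Cox8a. Ndufa4, named as a complex I subunit but now placed in complex IV, was at -0.02 ± 0.11 (SE).

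Complex V has a catalytic F1 head (Atp5f1a and Atp5f1b alternate in it), a central stalk, a peripheral stalk that holds the head still, and a membrane rotor ring made of copies of one small protein, which Atp5mc1 and Atp5mc2 both encode. All 14 subunits were lower in HFT, with a median of -0.08. Atp5f1a ran from 6.0 to 7.11 in HF and from 6.07 to 6.84 in HFT, a difference of -0.09 ± 0.14 (SE). Atp5f1b ran from 2.09 to 3.90 in HF and from 2.64 to 3.91 in HFT, and had the widest error of the 14, -0.08 ± 0.25 (SE). Atp5me and Atp5mg, small membrane subunits, had the smallest p of the complex, at -0.14 ± 0.12 and -0.11 ± 0.12 (SE). Of the 8 assembly factors, 4 were lower and 4 higher, from -0.09 (Sdhaf2) to 0.03, and Ndufaf4 was at -0.07 ± 0.09 (SE).

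The direction of these small differences changed when all the arrays that stood apart were left out. With those 6 arrays left out, which leaves 6 HF and 4 HFT animals, 15 of 68 subunits were lower in HFT, and the median moved from -0.08 to 0.04. Over all probes, 44.0% were then lower. With only the 3 epididymal arrays left out 55 of 68 were lower (median -0.03), and with only the 3 urothelial arrays left out 52 of 68 (median -0.03). Single animals moved the count and the median too. Without HFT 28 alone 44 of 68 were lower (median -0.02), without HF 35 alone 50 of 68 (median -0.02) and without HFT 23 alone 55 of 68 (median -0.04). Without HF 8 alone 67 of 68 were lower (median -0.15). Within slide 1 the median difference was 0.03 for complex I, 0.13 for complex II and 0.07 for complex III. Within the other 3 slides it lay between -0.12 and -0.08, between -0.19 and -0.08, and between -0.21 and -0.13. For complex IV the 4 slides ran from -0.15 to -0.00, and for complex V from -0.13 to -0.04. With slide as a block 0 members had an unadjusted p under 0.05 (limma), against 3.37% of all probes.

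The subunit levels differed from animal to animal, with a spread like that of other genes. The median SD over the 16 animals was 0.26 for the subunits and 0.25 for all genes tested. Each member was centred on its median over the 16 animals, and the median over a complex gives the level of an animal on that complex. On complex I the levels of HF 8, HFT 23 and HFT 28 were -0.44, -0.35 and -0.49, and the other 13 animals lay between -0.15 and 0.34. On complex III these 3 animals were at -0.65, -0.37 and -0.61, and on complex V at -0.39, -0.28 and -0.52. The 3 low animals were the 3 with high epididymal markers, 1 from HF and 2 from HFT. HFT 28 had the lowest value of all 16 animals in 35 of 68 subunits and HF 8 in 30 of 68. At the other end, HF 35 had the highest value in 45 of 68, with levels of 0.34 on complex I, 0.43 on complex II, 0.44 on complex III, 0.30 on complex IV and 0.27 on complex V.

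**Figure D2:**
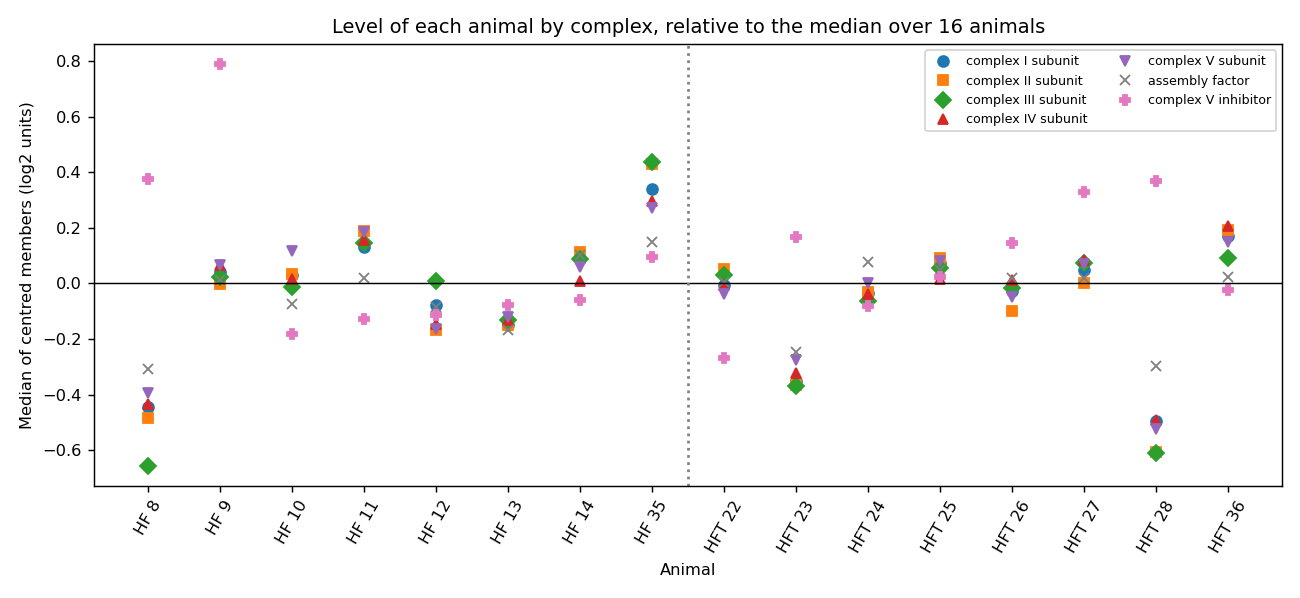
Level of each of the 16 animals (x axis, HF left and HFT right of the dotted line) on each class of genes, as the median of its members after centring each on its median over animals (y axis, log2 units). The 5 complexes sit close together within an animal, low on HF 8, HFT 23 and HFT 28 and high on HF 35, while Atp5if1 lies above them on HF 8, HF 9 and HFT 28.

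Over all 2278 pairs of subunits the median Pearson correlation across the 16 animals was 0.82, against 0.02 over all pairs of the 11591 genes tested. These values and those that follow to the end of the account of the 3 arrays leave out 2 spots described further on. They are descriptions and share the arrays' scaling. Without the 3 arrays high for epididymal markers the median over subunit pairs was 0.58 in 13 animals, and without all 6 it was 0.49 in 10 animals. Over 16 animals the median ran from 0.73 within complex V to 0.86 within complex II, with complex III at 0.76 and complex IV at 0.85. With the arrays left out the order was another: complex IV was highest, at 0.67 and 0.63, and complex III lowest, at 0.33 and 0.15. Assembly factors were less alike from the start, at 0.48 over 16 animals and 0.08 over 13.

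Against the mean of the other 13 arrays, the mean of the 3 arrays was lower in all 68 subunits, with a median of -0.49 log2 units, and lower in 63.0% of all genes tested, with a median of -0.10. In 53 of 68 subunits (77.9%) each of the 3 lay below each of the other 13, against 5.76% of all genes. The 6 lowest were Atp5f1b of the F1 head at -0.83, Ndufs1 at -0.78, the core protein Uqcrc1 at -0.71, the complex I accessory subunit Ndufa9 at -0.70, Uqcrfs1 at -0.69 and Sdha at -0.68. Nearest to 0 were the rotor ring genes, with Atp5mc1 at -0.10 and Atp5mc2 at -0.14, followed by Cox7a2l, a factor that joins complexes III and IV, at -0.19.

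The size of this difference depended on how arrays were scaled. With quantile normalization the median over the 66 subunits other than Ndufv1 and Ndufc2 was -0.28 rather than -0.49, 63 of 66 were lower, and 11 of 66 had all 3 arrays below all others, against 6.94% of all genes. Of all genes 67.0% were then lower, with a median of -0.15. The deposited value table gave -0.28, 63 of 66 and 13 of 66, with 67.0% of all genes lower, a median of -0.13 and 6.43% below all others. Median centring went the other way, with a subunit median of -0.66, all 66 lower and 60 of 66 below all others, against 78.2% of all genes lower, a median of -0.28 and 15.5% below all others. Under quantile normalization Atp5mc1, Atp5mc2 and Cox7a2l were above 0, at 0.13, 0.06 and 0.05, while Ndufs1 and Atp5f1b stayed at -0.67 and -0.68. The median pair correlation was 0.66 under quantile normalization, or 0.48 without the 3 arrays.

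**Figure D3:**
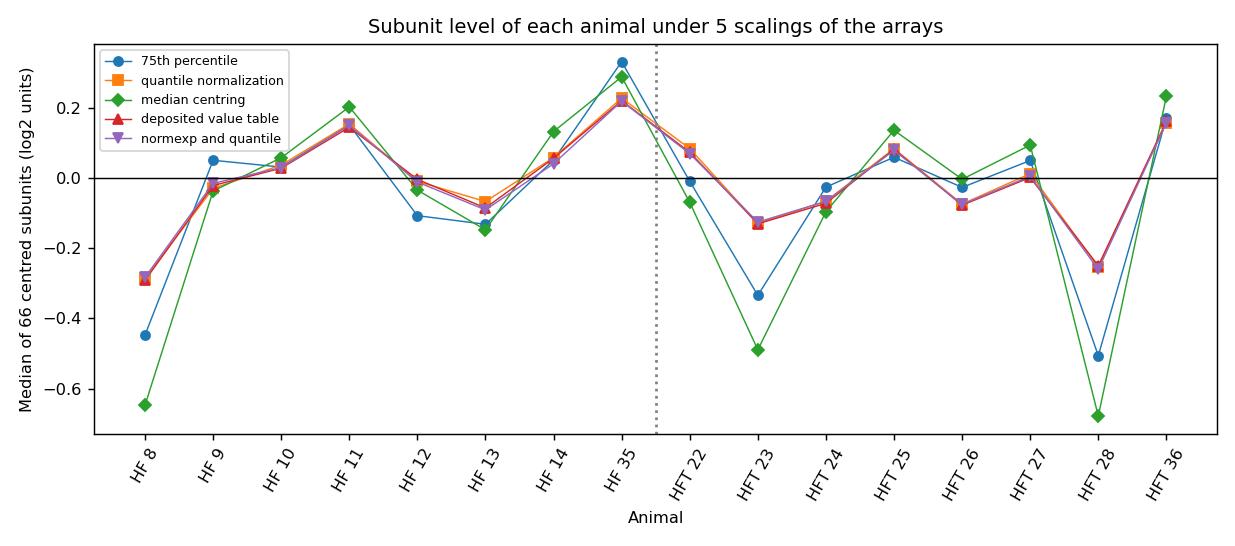
Median level of 66 subunits (y axis, log2 units, each centred on its median over animals) in each of the 16 animals (x axis) under 5 scalings of the arrays, with HF left and HFT right of the dotted line. HF 8, HFT 23 and HFT 28 are low under each scaling and HF 35 is high, and quantile-type scalings draw the low animals closer to 0.

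Markers of other cell types were read on the same arrays. The epididymal list had 13 of 16 genes on the array; 4 were well above background on every array, and Lcn9, Spink13, Cst8, Cst11 and Rnase9 on none. Its summed linear level, in units of the array's 75th percentile, ran from 0.720 to 24.7 in HF and from 0.632 to 24.2 in HFT. The adipocyte list summed to between 597 and 857 in HF and between 466 and 833 in HFT, and its median level was lowest on HFT 28 (-0.62) and HF 8 (-0.40), followed by HF 9 (-0.25) and HFT 23 (-0.17). On HF 35, the highest animal for the subunits, Ucp1 was at 6.75, the highest of the 16 (the lowest was -0.80), and the brown adipocyte list was at 1.34 above its median array. That list had 10 of 10 genes on the array, with Elovl3 and Zic1 above background on none, and summed to between 19.6 and 201 in HF and between 16.6 and 96.6 in HFT. The skeletal muscle list, described below, had a median level of 1.29 on HF 35, 1.29 on HFT 24 and 2.66 on HF 9. HF 35 also had the highest median level of urothelial markers: 7 of 10 were on the array, 4 were above background on every array and the other 3 on some arrays, and their sum ran from 0.630 to 77.0 in HF and from 0.824 to 81.7 in HFT. HFT 22 and HFT 24, the other animals with high urothelial markers, had subunit levels of -0.0097 and -0.026, although Ucp1 was second highest on HFT 22, at 5.18. With quantile normalization the subunit level was 0.23 on HF 35, 0.083 on HFT 22 and -0.066 on HFT 24. The part of any of these lists in the subunit levels was not tested. In whole tissue, fewer cells of a type and less RNA per cell cannot be told apart.

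The complex V inhibitor and the muscle isoform of complex IV did not follow the complexes. Atp5if1 encodes the protein that binds the F1 head and stops it from running backwards as an ATPase. Its level was 3.91 on HF 9 and 3.49 on HF 8, and from 2.93 to 3.21 in the other 6 HF animals. In HFT it ran from 2.85 to 3.49, highest on HFT 28. It was thus high on HF 8 and HFT 28, where the subunits were low, and at 3.28 on HFT 23, and the mean of those 3 arrays was 0.27 above that of the other 13 (0.46 with quantile normalization). Its correlation with the median of the subunits was -0.30 over 16 animals and 0.14 without the 3 arrays, a description in which all points share the array scaling. HFT minus HF was -0.00 ± 0.14 (SE, limma adjusted p = 1.0).

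Several subunits of complex IV have tissue isoforms. Cox6a2 is the heart and skeletal muscle form of Cox6a1, Cox4i2 is the form known from lung and vascular cells, and Cox6b2 and Cox8c are known from testis. Cox6a2 was at -2.29 on HF 9 and between -5.07 and -3.63 on the other 15 arrays. On HF 9 the muscle genes Ckm and Acta1 were also highest, at 1.76 and 3.67, against at most -1.81 for Ckm and -2.49 for Acta1 elsewhere. The muscle list had 13 of 14 genes on the array, 8 above background on every array and Myh1 on none, and summed to between 1.54 and 41.2 in HF and between 1.31 and 12.7 in HFT. HFT minus HF for Cox6a2 was -0.26 ± 0.32 (SE), and 0.01 without HF 9.

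**Figure D4:**
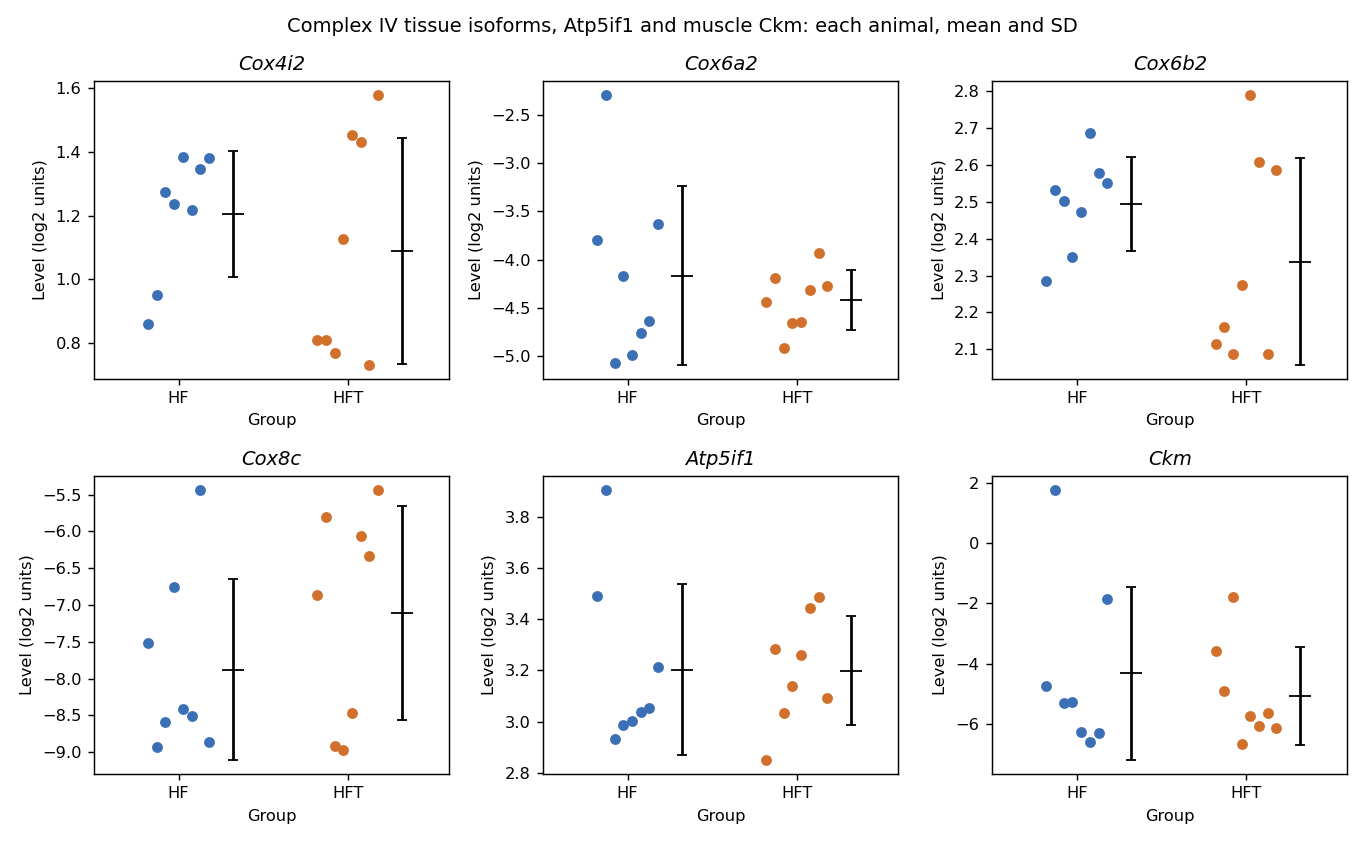
Level in log2 units (y axis, a scale of its own in each panel) of the complex IV tissue isoforms, the inhibitor Atp5if1 and the muscle gene Ckm in each HF and HFT animal (x axis; points), with the group mean and SD in black (8 animals per group). HF 9 is the highest point for Cox6a2 (-2.29), Atp5if1 (3.91) and Ckm (1.76), and Cox8c is spread from -8.97 to -5.43.

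Correlations with marker genes were computed for 3 pairs across the 16 animals, with two-sided permutation tests and Benjamini-Hochberg adjustment over the 3. Cox6a2 and Ckm had a Pearson r of 0.71 (permutation p = 0.0092, adjusted 0.028) and a Spearman rho of 0.50 (permutation p = 0.053, adjusted 0.079). Without HF 9 and HFT 24, the 2 animals farthest from the median of Ckm, r was 0.60 (permutation p = 0.019, adjusted 0.057), so the adjusted p was above 0.05, and rho was 0.64 (permutation p = 0.017, adjusted 0.052). Without the 6 arrays of high epididymal or urothelial markers r was 0.92 in 10 animals (permutation p = 0.038, adjusted 0.11), with HF 9 among them. Cox4i2 and Rgs5, a pericyte gene, had r = 0.58 (permutation p = 0.020, adjusted 0.030) and rho = 0.54 (permutation p = 0.035, adjusted 0.079). Without HF 8 and HFT 28 r was 0.42 (permutation p = 0.14, adjusted 0.21), so this relation no longer passed without the 2 animals. Cox6a2 and Ucp1 had r = -0.01 (permutation p = 0.98, adjusted 0.98) and rho = -0.03 (permutation p = 0.91, adjusted 0.91), and without HF 35 and HFT 26 r was -0.30 (permutation p = 0.31, adjusted 0.31).

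Cox4i2 ran from 0.86 to 1.38 in HF and from 0.73 to 1.58 in HFT, and Cox6b2 from 2.29 to 2.69 in HF and from 2.09 to 2.79 in HFT. In HFT the same animals were low on both: HFT 22, HFT 23, HFT 24 and HFT 28 were at 0.73 to 0.81 on Cox4i2 and 2.09 to 2.16 on Cox6b2, while HFT 26, HFT 27 and HFT 36 were at 1.43 to 1.58 and 2.59 to 2.79. The first 4 animals were those of HFT with high epididymal or urothelial markers. In HF, HF 8 was lowest on both (0.86 and 2.29), while HF 35 was at 1.38 and 2.55. Cox6b2 had the smallest unadjusted p of all 83 members, 0.17 (limma), at -0.16 ± 0.11 (SE), and without the 6 arrays it was at 0.04. For Cox4i2 the difference was -0.12 ± 0.14 (SE), and without the 6 arrays 0.16. Cox8c was well above background on 1 HF array and 5 HFT arrays. Its levels ran from -8.94 to -5.43 in HF and from -8.97 to -5.43 in HFT, mostly at background, and it passed the filter on dim probes only through HFT, so its difference and test are not read. Of the testis and sperm markers, 8 of 8 were on the array, 2 were above background on every array, and Tnp1, Tnp2, Odf1, Akap4 and Spata19 on none; the list summed to between 0.076 and 0.119 in HF and between 0.066 and 0.114 in HFT.

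Ndufv1 and Ndufc2, both of complex I, had the largest SD of all members (1.83 and 1.70), and each rested on a single spot. Ndufv1 was at -2.43 on HFT 28 and between 4.42 and 5.11 on the other 7 HFT arrays, and Ndufc2, an accessory subunit of the membrane arm, was at -2.55 there and between 3.95 and 4.34 on the others. Each gene had 2 spots of the same probe. On HFT 28 the Ndufv1 spot in row 98 and column 153 had a raw median signal of 13 against a local background of 17, while the spot in row 375 had a raw signal of 19132. The Ndufc2 spot in row 79 and column 160 had 16 against 17, while the spot in row 187 had 18342. Neither dark spot carried an outlier mark from the scanner software. Over the other members with 2 spots, the largest difference between the spots on HFT 28 was 0.53.

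The dark spots lay in a patch. On HFT 28, 115 spots were at or under their local background and over 4 log2 units below the other spots of their probe, all between rows 44 and 106 and columns 148 and 164 of an array of 384 rows and 164 columns. Of these 76 carried no mark. The other arrays had between 0 and 23 such spots. With them left out, HFT 28 was 0.45 log2 units below the next lowest HFT animal on Ndufv1 and 0.21 below it on Ndufc2, in place of 6.86 and 6.51. Accordingly HFT minus HF was -0.94 ± 0.85 (SE) for Ndufv1 as first computed and -0.14 ± 0.15 (SE) without the spot, and -0.88 ± 0.79 and -0.09 ± 0.10 (SE) for Ndufc2. The deposited value table carried the dark spots too, since Ndufv1 on HFT 28 was 5.57 below the next HFT animal there. Ndufv1 and Ndufc2 still took part in the low level of HFT 28 that the other subunits showed.

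**Figure D5:**
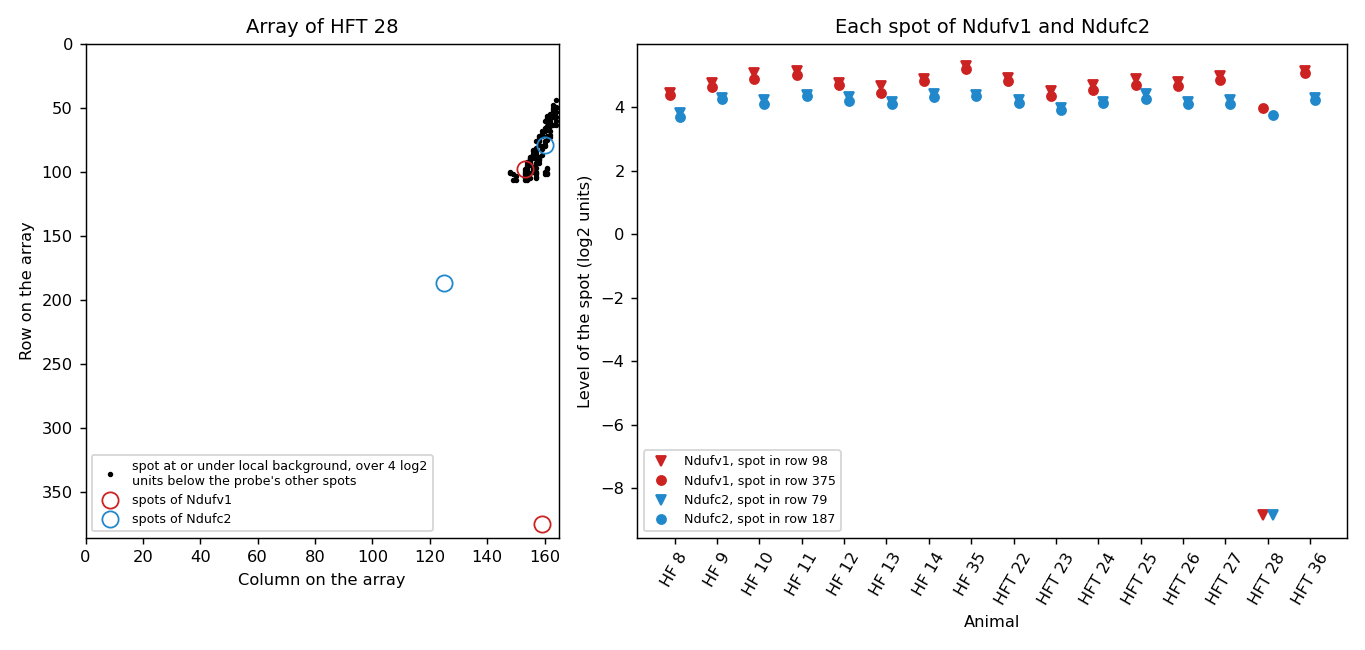
Left, position by row and column of the 115 spots of array HFT 28 at or under local background and over 4 log2 units below their probe's other spots, with circles on the spots of Ndufv1 and Ndufc2. Right, level in log2 units of each of the 2 spots of either gene on each array: on HFT 28 the spots in rows 98 and 79 lie near -8.85, and the other spots at 3.98 and 3.75.

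With 83 genes in 2 groups of 8 animals, 14 sets of 8 values (8.43%) held an animal apart from the other 7 by Dixon's criterion, against 8.50% over all genes tested. The animal was HF 8 in 11 of these and HFT 28 in 3, always the lowest. Over all genes, HF 8 was the animal in 34.7% of such sets. It stood apart as the lowest HF animal in 13.3% of members and 2.23% of all genes. Without the dark spots 12 sets remained, 11 on HF 8 and 1 (Ndufaf1) on HFT 28. The 11 on HF 8 spanned complexes I, III, IV and V and Sdhaf2. The largest gap after those of the dark spots was 0.99, for Atp5f1b, at 2.09 on HF 8 and from 3.09 to 3.90 in the other HF animals.

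Several probes measured the same gene for 17 members, with 22 probes beside those chosen. Their differences had the same sign as the chosen probe in 20 of 22, and their correlation with it across animals had a median of 0.80, from 0.05 (Ndufab1) to 0.99 (Atp5mg). One of them, a probe of Ndufaf4, had an unadjusted p of 0.049 (limma). The c-ring genes varied least among the complex V subunits, with an SD over 16 animals of 0.13 for Atp5mc2 and 0.14 for Atp5mc1, and Cox7a2l least of all members at 0.12.

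The wider pathway was read in 6 further lists of genes, none of which had a gene past an adjusted p of 0.05 (limma). Of 13 citric acid cycle enzymes 10 were lower in HFT, with a median of -0.11, and the mean of the 3 arrays with high epididymal markers was below that of the other arrays in all 13, with a median of -0.64, against 63.0% of all genes and a median of -0.10. Of 16 electron carriers and ubiquinone enzymes 11 were lower (median -0.04), led by Coq8a, a kinase-like protein of ubiquinone synthesis, at -0.50 ± 0.25 (SE, limma unadjusted p = 0.062). Complex IV assembly factors were lower in 9 of 15, those of complexes III and V in 7 of 9, and other mitochondrial proteins in 13 of 19. The counts of all 6 lists stand beside 56.2% of all probes lower in HFT. Correlations of the listed genes with the subunits ran from -0.24 (Mfn1) to 0.96 (Cs), so these counts are not of independent genes. Of 14 regulators of mitochondrial genes 12 were lower (median -0.08), and the coactivator Ppargc1b was the single gene with an unadjusted p under 0.05 among the 86 tested in the 6 lists (1.16%), a smaller share than the 2.36% of all probes. Its mean level was -0.30 in HF and -0.78 in HFT, a difference of -0.47 ± 0.14 (SE) with an unadjusted p of 0.0047 and an adjusted p of 1.0 (limma, n = 8 per group). The mean of the 3 arrays with high epididymal markers minus that of the others was -0.47 for Ppargc1b and -0.74 for Coq8a. The HFT minus HF differences of Ppargc1b and Coq8a are not given without those arrays.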

How the data were processed

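Whole-tissue RNA of 16 animals was hybridised to 1-colour Agilent rat arrays. The authors' scanner files, made with Agilent Feature Extraction 10.7.3.1 per the submitters' processing notes, hold background-subtracted intensity per spot, raw median and local background intensities, and marks (other values) for outlier spots and for spots well above background, per the file headers. The deposited value table holds log2 values of the same arrays; how they were normalized is not stated in the labels or headers.

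Here log2 intensity minus each array's 75th percentile was averaged over the unmarked spots of a probe, and 62976 spots gave 30367 probes. Probes were named through RefSeq accessions (18005 probes, 15168 genes), with 1 probe per gene, that of highest mean signal. A probe was kept (21808) if 4 or more of the 8 arrays of either group had it well above background, and was fitted with limma 3.58.1 in R 4.3.3 over all 16 arrays, with Benjamini-Hochberg adjustment over all of them. Slide carried both groups, but position on the slide was tied to group and cannot be told apart from it.

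In data simulated with the probes' own means and spreads, 80.3% of probes changed 2-fold were recovered, and 51.0% of those changed 1.5-fold. Each run changed 200 of 21808 probes at once, and recovery with fewer changed probes was not simulated. The noise was drawn independently for each probe, whereas the subunits moved together. No change below 1.5-fold was simulated, so the figures do not cover the small differences of the subunits. The number of arrays limits the precision. The members and gene lists were chosen with earlier results of these data known. Genes named with values were the tissue isoforms and their partners, common and catalytic subunits, the 2 smallest p per class, outliers with a gap of at least 1 log2 unit and the 3 of largest SD; for each further list up to 3 of smallest p could be named. Other genes mentioned were picked after their values were seen. Alternatives changed the scaling, background correction, probe filter, probe choice, slide block, array weights and arrays used. Leaving out dark spots, and keeping marked spots, were added after seeing the data.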

Additional observations from a re-analysis of the deposited data

Results flagged for a closer look

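Dixon's criterion picked 14 sets of member values in which 1 animal lay far from the other 7 of its group (Ndufc2 in both groups), and 1 marker gene; chance alone would pick about 1 in 20 groups, and over all genes tested 8.50% were picked. On HF 8 the low values were 2.83 for Sdhaf2, 2.18 for Ndufa10, 3.40 for Ndufb6, 3.76 for Ndufc2, 1.67 for Ndufs1, 0.34 for Ndufs8, 3.23 for Uqcrfs1, 5.85 for Cox8a, 4.45 for Ndufa4, 2.09 for Atp5f1b and 1.98 for Atp5f1c. On HFT 28 they were -3.55 for Ndufaf1, -2.43 for Ndufv1 and -2.55 for Ndufc2, the last 2 from 1 dark spot each. The muscle gene Acta1 was high on HF 9, at 3.67, against -4.31 to -2.49 in the other HF animals. HF 8 and HFT 28 were both high for epididymal markers, and the part of those in the low values was not tested.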

How the results depend on the processing

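No alternative run gave a member an adjusted p under 0.05 (limma), while the sign of small differences was not stable. With the 6 arrays of high epididymal or urothelial markers left out, 1 member had an unadjusted p under 0.05 (Ndufb4, at 0.19; 1.20% of members, against 5.53% of all probes), 15 of 68 subunits were lower in HFT, and HFT minus HF was 0.041 for Cox4i1, 0.16 for Cox4i2, 0.10 for Cox6a1, 0.087 for Cox6b1, 0.044 for Cox6b2, 0.11 for Cox8a, 0.088 for Ndufa4, 0.043 for Ndufb8, 0.081 for Sdhb, 0.072 for Uqcrc2, 0.041 for Atp5f1a, 0.071 for Ndufv1, 0.038 for Sdha, 0.081 for Atp5if1, 0.0069 for Sdhd, 0.093 for Uqcr11, 0.00016 for Atp5me and 0.014 for Atp5mg. Leaving out the 3 urothelial arrays turned it to 0.0074 for Cox4i2, 0.0037 for Cox6a1, 0.0086 for Cox8a, 0.022 for Ndufa4, 0.0019 for Atp5f1b and 0.083 for Atp5if1, and leaving out the 3 epididymal ones to 0.00057 for Ndufa4. It was 0.022 for Ndufa4 and 0.021 for Atp5if1 with quantile normalization, 0.029 for Ndufa4 and 0.022 for Atp5if1 with normexp, 0.030 for Ndufa4 and 0.024 for Atp5if1 in the deposited table, and 0.0082 for Ndufa4 and 0.10 for Atp5if1 with array weights. Leaving out 1 animal gave 0 to 1 members with an unadjusted p under 0.05 (limma), against 2.02% to 3.12% of all probes. Cox6b2 was that member, without HFT 26, at -0.22 with an unadjusted p of 0.038 (limma). That run had 1.20% of members and 2.92% of all probes under 0.05. Across these runs 44 to 67 subunits were lower in HFT, with differences from -0.14 to 0.0025 for Cox6a1, -0.38 to 0.013 for Cox6a2, -0.13 to 0.0084 for Cox8a, -0.10 to 0.029 for Ndufa4, -0.15 to 0.0012 for Sdhb, -0.26 to 0.014 for Atp5f1b and -0.045 to 0.10 for Atp5if1.

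The level of HFT 28 was -0.25 on complex I, -0.23 on complex IV and -0.25 on complex V with quantile normalization, and -0.25, -0.22 and -0.23 in the deposited table. That of HF 8 on complex IV was -0.65 with median centring. HFT 28 differed from the lowest other HFT animal on Ndufv1 and Ndufc2 by -0.45 and -0.21 without the dark spot, -0.37 and -0.18 on the bright spot's position alone, -13.35 and -12.83 on the dark spot's position alone, -5.57 and -5.02 in the deposited table, and -4.49 and -4.08 with normexp. No other probe of these genes was on the array. Cox6a2 and Ckm had r = 0.60 without the 2 farthest animals and 0.92 without the 6 arrays, Cox4i2 and Rgs5 0.42 and 0.49, and Cox6a2 and Ucp1 0.052 with quantile normalization. The cause of these changes was not tested. No paired analysis was possible because the groups share no animal numbers.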

Other observations

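The patch of dark spots on array HFT 28 was not limited to this pathway: its 76 unmarked dark spots belonged to probes of 63 named genes. Probes with a single spot could not be counted in this way, so more genes may be touched.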
